A study of Mus musculus with 6 samples.

Results

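The CCT chaperonin subunits were followed from dividing myoblasts to myotubes on 6 HG-U133A arrays, 3 per group. The labels describe the RNA as total RNA of C2C12, an established mouse line whose myoblasts stop dividing and fuse into myotubes. The myotubes were kept in 2.5% horse serum, and the labels used here give no medium, time or passage for the myoblasts and no genetic change or drug for either group. The title of myoblast array 3 names no cell stage, so its group was taken from its description. That description carries the numbers of both other myoblast arrays. The labels do not say whether array 3 is a sample separate from them. The array carries human probe sets while the labels name mouse. Which species the RNA came from was left unsettled, so genes carry the human symbols of their probe sets. Members were the probe sets annotated with the single symbol TCP1, CCT2, CCT3, CCT4, CCT5, CCT6A, CCT6B, CCT7 or CCT8. This gave 8 of the 11963 genes with a probe set of their own, measured by 11 of 22283 probe sets. The 3 probe sets that list TCP1 also carry a second symbol, so the alpha subunit has no value below. The genes were chosen by their differences between myotube and myoblast arrays in an earlier look at the same signals. Their values are therefore a description and carry no p-value, and "called" below only says that a probe set passed the threshold applied to every probe set.

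CCT, also called TRiC, is the chaperonin of the eukaryotic cytosol. Its paralogous subunits form a barrel of stacked rings that encloses an unfolded protein and releases it after ATP hydrolysis. Actin and tubulin are its classic clients, which it receives in part from the prefoldin complex, and several proteins with WD40 repeats, CDC20 among them, also need it. Each ring holds one copy of every subunit, and CCT6B is a testis-enriched relative of the zeta subunit CCT6A.

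Mouse promoter sequence was set beside the members because most of their probe sets moved in one direction. RefSeq windows of the GRCm38.p6 build, 250 bases before to 50 after a start site, were matched by symbol for 8 of the 9 genes and numbered 10. The stretches below are the 150 bases before the start site, on the strand of the gene. Capitals mark CCAAT or its complement ATTGG, and CCGGAAG or CTTCCGG, the letters of ETS-type sites. Cct3, Cct6a and Cct7 are shown for their repeated CCAAT boxes, Cct8 for its ETS-type letters, and Cct6b because its probe set was not called lower. The probe set of CCT3 was not called lower either.
Cct3: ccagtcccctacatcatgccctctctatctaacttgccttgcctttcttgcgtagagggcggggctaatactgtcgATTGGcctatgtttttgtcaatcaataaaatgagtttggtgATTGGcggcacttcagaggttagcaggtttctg
Cct6a: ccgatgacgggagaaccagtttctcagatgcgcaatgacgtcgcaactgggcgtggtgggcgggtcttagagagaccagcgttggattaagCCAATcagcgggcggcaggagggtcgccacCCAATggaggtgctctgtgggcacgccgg
Cct7: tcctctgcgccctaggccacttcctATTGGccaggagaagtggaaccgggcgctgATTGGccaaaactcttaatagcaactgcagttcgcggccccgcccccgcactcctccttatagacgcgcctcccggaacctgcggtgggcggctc
Cct8: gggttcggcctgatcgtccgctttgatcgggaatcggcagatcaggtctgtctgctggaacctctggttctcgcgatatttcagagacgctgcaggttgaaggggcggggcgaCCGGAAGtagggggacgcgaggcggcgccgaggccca
Cct6b: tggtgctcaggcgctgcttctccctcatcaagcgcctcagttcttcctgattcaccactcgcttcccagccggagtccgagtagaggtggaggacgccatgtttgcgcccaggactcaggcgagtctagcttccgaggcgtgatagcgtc

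These stretches lie at chr3:88296985-88297134 and chr5:129787206-129787355 on the plus strand for Cct3 and Cct6a. Cct7 lies at chr6:85451355-85451504, plus strand. Cct8 lies at chr16:87495870-87496019 and Cct6b at chr11:82764322-82764471, both on the minus strand. Over the whole 300-base windows, CCAAT or ATTGG occurred in 5 of the 10 member windows, those of Cct3, Cct6a, Cct6b, Cct7 and Tcp1, against 37.4% of all 32851 windows in the table. It occurred at least 2 times in 3 of the 10, against 11.7% of all. In Cct6b its only match began 20 bases after the start site. CCGGAAG or CTTCCGG occurred in 4 of the 10 windows, those of Cct2, Cct6b, Cct8 and Tcp1, against 8.86% of all. In Cct6b this match began at position -158 from the start site, just outside the stretch shown. The heat shock factor letters GAANNTTC were found in 1 window, of Cct2, against 7.86% of all, and TTCNNGAA in 2, of Cct5 and Cct6a, against 8.52%. NN stands for any bases, and both heat shock patterns read the same on either strand. These are matches of letters in mouse windows and not measured binding.

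The 2 groups differed in most of the cycling-cell and muscle markers. The summed signal of 6 cycling-cell genes ran from 26495 to 30835 on the myoblast arrays and from 5915 to 7962 on the myotube arrays, and 5 of the 6 were called lower by limma. The summed signal of 8 muscle genes was 3602 on myoblast array 1, 655 on myoblast array 2 and 932 on myoblast array 3, and ran from 16667 to 17789 in myotubes. Myoblast array 1 thus stood above the other myoblast arrays, with MYH3 at 510 against 9 and 27, MYL1 at 979 against 120 and 262 and DES at 1496 against 257 and 342. In myotubes DES gave 1362, 79 and 1280 and was not called, while the other 5 tested muscle genes were called higher. MYOG and CKM, 2 of those 8, did not exceed the highest control probe set among those taken to be unspiked on any array. That control ran from 251.5 to 1040.2 across arrays and serves below as the background level. A sum over 6 fibroblast markers ran from 27191 to 33462 in myoblasts and from 124129 to 127892 in myotubes. COL3A1, with a myotube mean of 71240, was the largest part of it. Of the 6, 5 were called higher, and PDGFRA, with means of 3404 in myoblasts and 2494 in myotubes, was not called. All 4 leukocyte markers stayed at or below the background level on every array. These shifts run along with the subunit changes below, and their part in them was not tested. In bulk RNA, fewer cells of a type and less RNA per cell cannot be told apart. Myoblast arrays 2 and 3 correlated at r = 0.988 over probe sets, against 0.889 to 0.912 for the other pairs within a group. Myotube array 3 correlated with myoblast arrays 2 and 3 at 0.920 and 0.924, above its 0.902 and 0.908 with the other myotube arrays. The array run records put the groups on different scan days and chip lots, so day and lot cannot be told apart from group. The laboratory series used below was inferred from the laboratory codes of those records. It places myoblast array 1 with the 3 myotube arrays, and myoblast arrays 2 and 3 in another series. Neither scan day nor chip lot shows this grouping. All 3 myoblast arrays carry day 1 and the myotube arrays day 2. Myoblast array 1 is from lot 1, myoblast arrays 2 and 3 are from lot 2, and the myotube arrays from lot 3. Whether the inferred series was a batch was not tested. The myoblast array with the higher muscle signal is the only one in the inferred series of the myotubes.

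Most CCT probe sets gave less signal in myotubes than in myoblasts. Of the 11, all of which passed the filter on dim probe sets, 7 were called lower, 4 were not called and 0 were called higher (limma, adjusted p under 0.05). The 7 belong to CCT2, CCT5, CCT6A, CCT7 and CCT8. Over all 13329 tested probe sets 11.3% were called, 6.4% lower and 4.93% higher. Their median log2 change, myotube minus myoblast on the scale of log2(signal + 196.9), was -0.74, with a range from -1.50 to 0.39, beside a median of 0.09 over all tested probe sets. Bright probe sets leaned lower in general. Among the 2803 tested probe sets within the signal range of the 9 bright CCT probe sets, the median change was -0.18 and 15.7% were called lower, where the 9 had a median of -0.96 with 7 called. The 3 myotube signals all lay below the 3 myoblast signals for 8 of these 9, as they did for 28.9% of the probe sets of like brightness and 15.5% of all. Counting both directions, the groups did not overlap for 9 of the 11, against 33% of all tested probe sets. Because the genes were picked for these results, nothing is read from the difference between those shares.

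**Figure D1:**
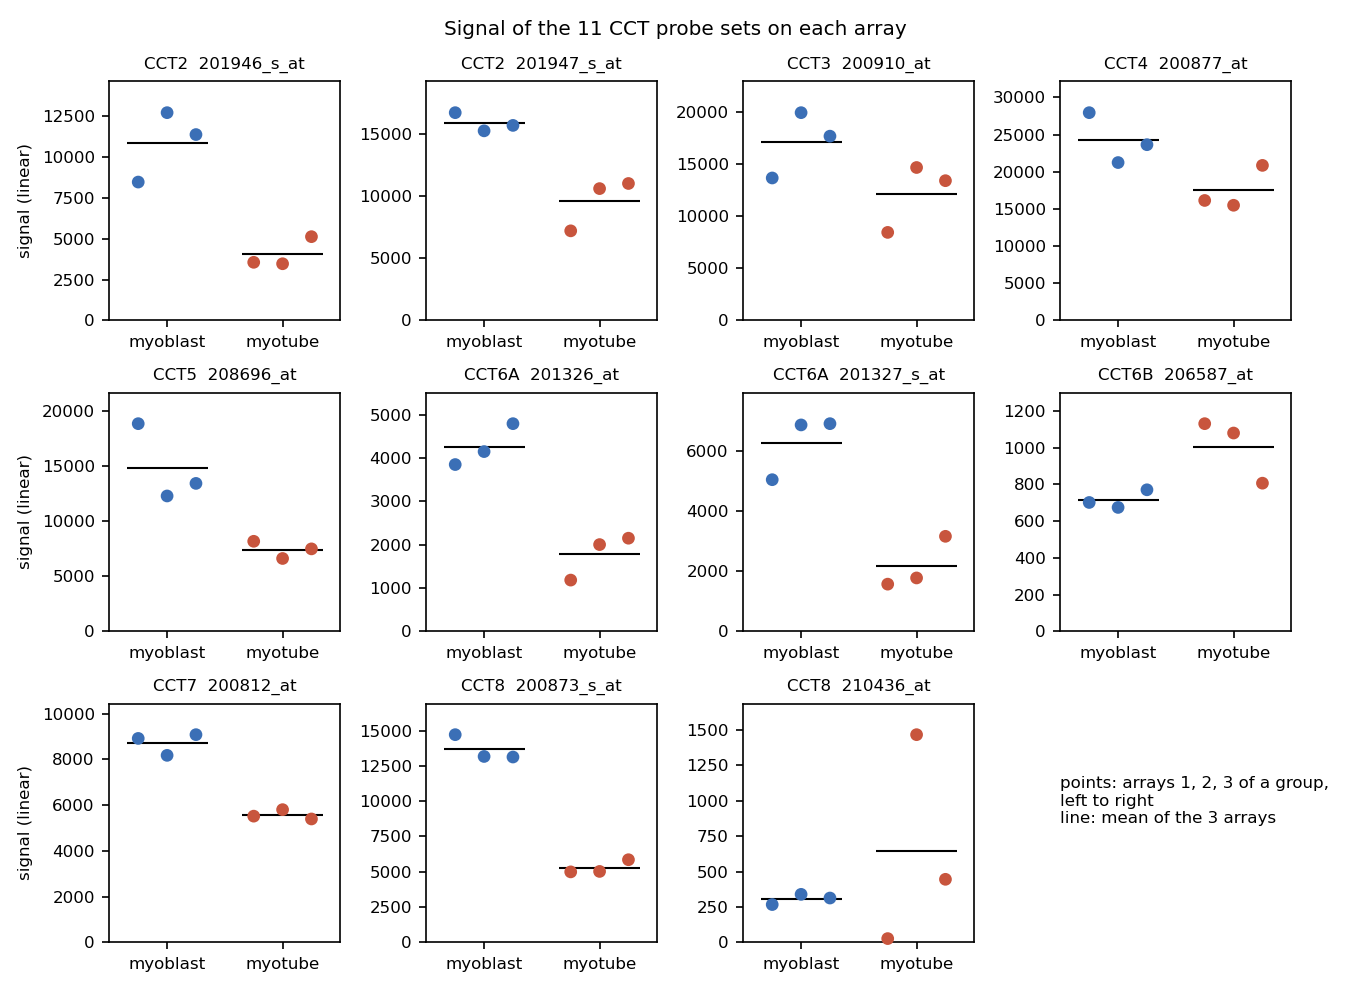
Linear signal (y axis) of the 11 CCT probe sets on the 3 myoblast (blue) and 3 myotube (red) arrays, 1 panel per probe set with its own scale, with a line at each group's mean. All 3 myotube points lie below all 3 myoblast points in 8 panels, the groups overlap for CCT3 and for CCT8 210436_at, and the measured CCT6B myotube points lie above its myoblast points.

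The zeta subunit CCT6A showed the lowest value of the range. Its probe set 201327_s_at read 5056, 6881 and 6923 on myoblast arrays 1 to 3 and 1575, 1782 and 3169 on myotube arrays 1 to 3. Every myotube value lay below every myoblast value, and the highest of them, on myotube array 3, was closest to myoblast array 1. The means were 6287 ± 1066 and 2175 ± 866.4 (SD, n = 3), 2.82-fold apart on the pseudocount scale with a log2 change of -1.50 ± 0.26 (SE). The other CCT6A probe set, 201326_at, gave 3849, 4148 and 4792 against 1184, 2003 and 2150. Its groups were as clearly apart, and its change of -1.21 ± 0.24 differed from that of the first by little more than 1 SE.

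The theta subunit CCT8 had the tightest groups among the strongly lower subunits. Its bright probe set 200873_s_at read 14706, 13163 and 13124 in myoblasts and 4993, 5025 and 5854 in myotubes. The groups were far apart and each lay close together, and the log2 change was -1.34 ± 0.17, or 2.53-fold. A second CCT8 probe set, 210436_at, gave 267, 339 and 313 in myoblasts and 27, 1465 and 445 in myotubes. It exceeded the background level on 3 of the 6 arrays, its myotube values spread over the whole range, and its change was 0.31 ± 0.65. Averaging the pair of probe sets gave -0.52 ± 0.33 for CCT8, which was not called.

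For the beta subunit CCT2 the probe sets differed in size. Probe set 201946_s_at gave 8460, 12703 and 11364 in myoblasts and 3553, 3465 and 5121 in myotubes, a log2 change of -1.38 ± 0.22. Probe set 201947_s_at gave 16703, 15242 and 15679 against 7202, 10598 and 11009, a change of -0.74 ± 0.20. Neither overlapped between groups. Myoblast array 1 was the lowest myoblast array in the first probe set and the highest in the second, so the order of the arrays within the group was not shared.

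The epsilon subunit CCT5 gave 18864, 12299 and 13440 in myoblasts and 8183, 6623 and 7495 in myotubes. Here myoblast array 1 stood well above the other myoblast arrays, and the myotube arrays lay close together at 7434 ± 782. The log2 change was -0.96 ± 0.21, or 1.95-fold.

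The eta subunit CCT7 had a smaller change and little spread. It gave 8915, 8175 and 9079 in myoblasts and 5518, 5802 and 5395 in myotubes. The change of -0.63 ± 0.16, or 1.54-fold, was called with all arrays.

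The gamma and delta subunits were not called. CCT3 gave 13671, 19939 and 17684 in myoblasts and 8448, 14676 and 13411 in myotubes, and myoblast array 1 fell among the myotube values. CCT4 gave 27956, 21243 and 23646 against 16142, 15494 and 20862, with myotube array 3 just under the lowest myoblast array. Their log2 changes were -0.50 ± 0.25 and -0.47 ± 0.21.

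CCT6B, the relative of CCT6A, was close to the background level. It gave 702, 675 and 771 in myoblasts and 1131, 1080 and 807 in myotubes, so the measured myotube values lay above the myoblast values, by a narrow margin on myotube array 3. The change of 0.39 ± 0.30 was not called, and the signal on myoblast array 1 lay below that array's background level of 919.9. Raised to that level it exceeds the 807 of myotube array 3, and the groups then overlap, so no direction is read for CCT6B. Within each array, the log2 ratio of CCT6A to CCT6B was lower by 1.88 in myotubes, with SDs over arrays of 0.24 in myoblasts and 0.71 in myotubes. With CCT6B raised to background on myoblast array 1 it was lower by 1.78, and the lowest myoblast ratio of 2.23 still lay above the highest myotube ratio of 1.75. The ratio uses CCT6A 201327_s_at, whose own change was -1.50. With CCT6B as measured, all 7 ratios between it and another subunit did not overlap between groups, so this was not particular to CCT6A. Of pairs among probe sets as bright as the CCT probe sets, 47.4% did not overlap, and CCT6B is dimmer than those.

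**Figure D2:**
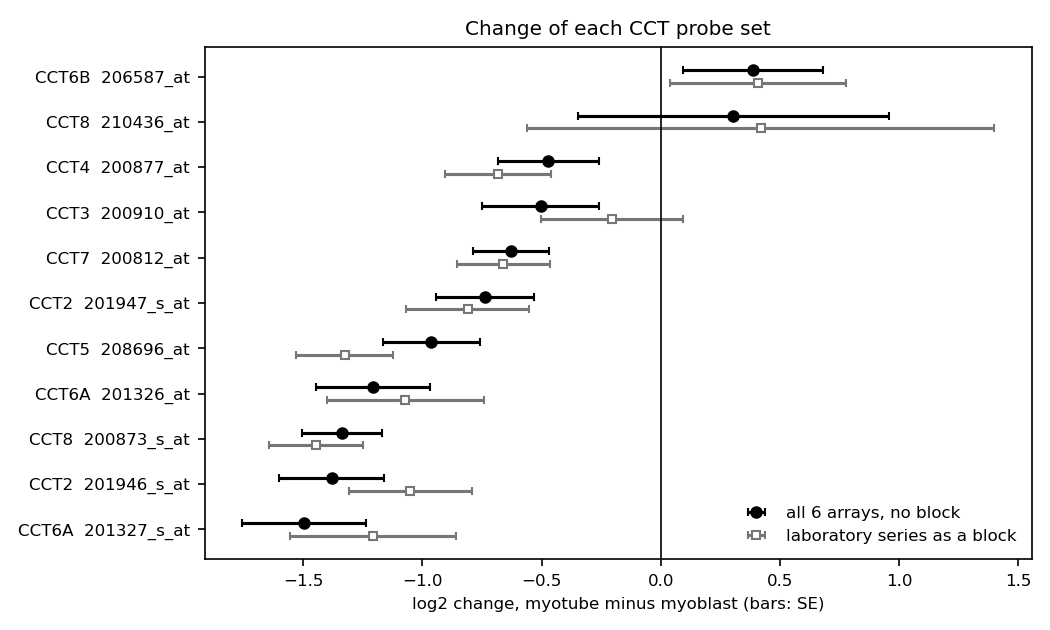
Log2 change, myotube minus myoblast, of each CCT probe set (x axis, bars are SE) with all 6 arrays and no block (filled circles) and after blocking on laboratory series (open squares). The filled circles run from -1.50 for CCT6A 201327_s_at to 0.39 for CCT6B, and no probe set changes sign with the block.

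The order of the changes, from CCT6A, CCT2 (201946_s_at) and CCT8 through CCT5 to CCT7, CCT3 and CCT4, was not resolved throughout. CCT6A and CCT2 differed by less than the sum of their SEs, as did CCT2 and CCT8, CCT5 and CCT7, CCT7 and CCT3, and CCT3 and CCT4. CCT8 and CCT5 differed by slightly more than that sum. Unequal change was looked at through the ratio of 2 subunits within each array, taken from the brightest probe set of a gene. Of the 21 pairs among the 7 genes other than CCT6B, 9 had ratios that did not overlap between groups, a share close to the 47.4% of all pairs of probe sets of like brightness. The log2 ratio of CCT4 to CCT8 was higher by 0.87 in myotubes (SDs of 0.12 and 0.11). That of CCT7 to CCT8 was higher by 0.71 (SDs of 0.10 and 0.17). The neighbours CCT5 and CCT7 also had ratios that did not overlap, with a change of -0.33. CCT3 against CCT4 and CCT2 against CCT7 overlapped, with ratio changes of -0.03 and -0.11. For CCT2 every ratio uses the brighter 201947_s_at, with a change of -0.74, and not the 201946_s_at placed in the order above. The ratios and the count of pairs therefore do not describe 201946_s_at, whose change was -1.38.

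How many CCT probe sets were called depended on the arrays used. The count of 7 became 4 when myoblast array 3 was left out, 4 when myotube array 1 was and 3 when myotube array 2 was, where 2.13%, 2.48% and 2% of all tested probe sets were called lower. CCT8 200873_s_at and CCT2 201946_s_at were called whichever single array was left out. CCT7 was called only when myoblast array 1 was the array left out, with changes between -0.67 and -0.60 throughout. CCT2 201947_s_at was lost without myoblast array 2 (-0.77), myoblast array 3 (-0.75), myotube array 1 (-0.55) or myotube array 2 (-0.82). CCT5 was lost without myotube array 1 (-1.03) or 2 (-0.88), CCT6A 201326_at without myoblast array 3 (-1.12), and CCT6A 201327_s_at without myotube array 2 (-1.40).

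The fit that blocks on the inferred laboratory series takes its contrast from myoblast array 1 and the 3 myotubes. In it 2 of the 11 were called, against 0.998% of all tested probe sets called lower. These were CCT8 200873_s_at at -1.45 ± 0.20 and CCT5 at -1.33 ± 0.20. CCT6A, at -1.21 and -1.07, and CCT2, at -1.05 and -0.81, kept their direction but were not called. CCT3 shrank from -0.50 to -0.20, the only probe set with a lower signal in myotubes whose change became smaller by more than 1.5 times. The median over the members was -0.81 in this fit.

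The partners of CCT were compared on genes, each by its brightest probe set, with 13% of 8161 tested genes called, 7.09% lower and 5.88% higher, and a median change of 0.12. Among probe sets in the signal range of the 9 bright CCT probe sets, 15.7% were called lower, with a median change of -0.18. The lists below were not matched for brightness and were chosen with earlier results of these data known. Their counts are therefore a description, and the adjusted p-values below are no test of these genes. In 10 lists of chaperonin partners, clients and other chaperones, 61 genes were tested, 12 fell, 5 rose and 44 did not pass (median -0.35). Without myoblast array 2 or 3, or myotube array 1 or 2, 6, 6, 7 or 5 fell and 3 rose each time, and without myoblast array 1 the rises numbered 9. Blocking on series left 5 lower and 2 higher calls, and ACTC1, ACTA2, CDC20, HSPD1 and HSPE1 were among them. The other 12 named genes of these lists that had been called were not called in that fit. Its remaining lower calls were 1 tubulin gene and 1 gene of the HSP70 and HSP90 system, which had not been called without the block.

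Prefoldin, which hands unfolded actin and tubulin to CCT, did not move one way. Of 5 tested subunits 1 fell, 1 rose and 3 did not pass (median -0.57). VBP1, its subunit 3, went from 5531, 8398 and 7820 in myoblasts to 2642, 2378 and 3350 in myotubes (-1.31 ± 0.21, limma adjusted p = 0.0044). PFDN5 went the other way, from 16964, 11379 and 12551 to 25735, 23426 and 25633 (0.88 ± 0.20, limma adjusted p = 0.0184). Both had groups that did not overlap. PFDN4 was not called by its brightest probe set, while another of its probe sets, 205360_at, was called higher. PFDN5 was lost without any one of myoblast arrays 2 and 3 and myotube arrays 1 and 2, at 0.76, 0.83, 0.86 and 0.93, and 1 of its 2 tested probe sets was called. Neither was called with the series block (-0.95 and 0.55). Without myotube array 3, PFDN2 (-0.79) and PFDN4 (-1.20) were called lower as well.

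Among the prefoldin-like and R2TP genes, whose complex assembles large protein machines, 1 of 6 fell (median -0.35). It was RUVBL2, an AAA+ ATPase, at 5047, 3729 and 3776 against 701, 602 and 2605 (-1.78 ± 0.42, limma adjusted p = 0.0211). Myotube array 3 lay far above the other myotube arrays, and on those 2 the signal was at or below background. The call was lost without myotube array 1 (-1.54) or 2 (-1.45). Of 3 tested CCT cofactors 1 fell (median -0.59), the thioredoxin-like TXNDC9, which binds CCT, at 6355, 8707 and 8021 against 3990, 3330 and 5494 (-0.84 ± 0.21, limma adjusted p = 0.0301). This call was lost without myoblast array 2 (-0.74) or 3 (-0.80), or myotube array 1 (-0.81) or 2 (-0.68).

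The clients of CCT went in different directions. Of 5 actin genes 3 rose and 2 did not pass (median 1.76). ACTC1, cardiac actin, went from 6232, 1986 and 1872 to 17010, 16602 and 22950 (2.62 ± 0.38), ACTA1, skeletal actin, from 499, 127 and 66 to 1770, 1515 and 1895 (2.30 ± 0.41), and ACTA2, smooth muscle actin, from 9076, 4825 and 5575 to 20422, 21945 and 22552 (1.76 ± 0.23), with limma adjusted p-values of 0.00277, 0.00701 and 0.0017. Myoblast signals of ACTA1 were below background on all 3 arrays, so the gene was at least 4.07-fold higher when they are raised to that level. All 3 stayed called whichever single array was left out, and without myoblast array 1 ACTB (1.92) and ACTG2 (1.04) were called higher too. In the series block their changes were 1.55, 1.46 and 1.23, and ACTA1 was not called (adjusted p = 0.101).

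Of 10 tubulin genes 3 fell and 7 did not pass (median -0.51). TUBG1, the gamma-tubulin of microtubule nucleation, went from 2686, 3917 and 3998 to 1606, 944 and 1737 (-1.22 ± 0.26, limma adjusted p = 0.0157), TUBB3 had a change of -0.73 ± 0.21 (adjusted p = 0.0495) and TUBB6 one of -0.73 ± 0.20 (adjusted p = 0.0358). One of the 2 tested TUBB3 probe sets was called. TUBG1 was lost without myoblast array 2 (-1.13), myoblast array 3 (-1.12) or myotube array 2 (-0.98). TUBB3 and TUBB6 were lost without myoblast array 2 (-0.77 and -0.80) or 3 (-0.77 and -0.76), or myotube array 1 (-0.56 and -0.68) or 2 (-0.77 and -0.66). The alpha-tubulin TUBA1C read 214168 on myoblast array 1 against 43667 and 52374 on the others, and TUBB 96168 against 54083 and 54756. Without that array TUBA1C and TUBB were called higher (0.95 and 0.54) and TUBB4B lower (-0.53), which gave 2 higher and 4 lower calls. TUBA4A was called higher without myotube array 3 (0.83). After quantile normalization 5 tubulin genes were called lower, and TUBB was one of them at -0.60, against 0.27 in the table as deposited. No direction is read for TUBB. None of 5 tubulin cofactors, which complete the tubulin dimer after CCT, passed (median -0.41); TBCA had a change of -0.41 ± 0.18 (limma adjusted p = 0.146, unadjusted 0.0455) and TBCD one of -1.10 ± 0.52 (adjusted p = 0.169). Of 12 WD40 and other clients 1 fell (median -0.32), the mitotic activator CDC20, from 4677, 3323 and 3693 to 92, 435 and 80 (-3.46 ± 0.36, limma adjusted p = 0.000484). The myotube signals were all below background, which makes the fall at least 5.25-fold. A second client was called lower without myoblast array 1 (PPP2R2A, -0.70) and without myotube array 3 (GNB1, -0.68).

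The mitochondrial chaperonin fell with the subunits of the cytosolic one. Of 3 tested genes in the list of other chaperonins 2 fell and 1 rose (median -1.06). HSPD1, the mitochondrial HSP60, gave 31365, 27355 and 28041 in myoblasts and 12450, 13113 and 15878 in myotubes (-1.06 ± 0.18, limma adjusted p = 0.00615). Its lid HSPE1, or HSP10, gave 9332, 11396 and 10751 against 2941, 3988 and 4171 (-1.47 ± 0.19, limma adjusted p = 0.00142). Both stayed called whichever array was left out and in the series block. MKKS, a chaperonin-like protein that works with CCT on the BBSome of cilia, rose from 1170, 913 and 808 to 2315, 2520 and 1726 (1.04 ± 0.25, limma adjusted p = 0.0254). Its call was lost without myoblast array 2 (1.01) or 3 (0.94), or myotube array 1 (0.99) or 2 (0.93), and with the series block (0.79).

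In the HSP70 and HSP90 system 3 of 10 genes fell and 7 did not pass (median -0.37). PTGES3, the HSP90 co-chaperone p23, went from 17079, 19968 and 19547 to 6923, 3791 and 9501 (-1.55 ± 0.28, limma adjusted p = 0.00779) and stayed called whichever array was dropped, but not in the series block (-1.41, adjusted p = 0.108). HSPH1, an HSP70 nucleotide exchange factor, had a change of -0.91 ± 0.18 (adjusted p = 0.0113), lost without myoblast array 2 (-0.90), myoblast array 3 (-0.89) or myotube array 2 (-0.80). HSPA4, of the same family, had one of -0.62 ± 0.16 (adjusted p = 0.0305), with 2 of its 4 tested probe sets called, and was lost without myoblast array 2 (-0.64) or 3 (-0.61), or myotube array 1 (-0.59) or 2 (-0.65). Neither regulator passed. MYC had a change of -0.57 ± 0.19 (adjusted p = 0.0803, and 0.0383 without myotube array 3, at -0.72) and the heat shock factor HSF1 one of 0.12 ± 0.41 (adjusted p = 0.853).

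**Figure D3:**
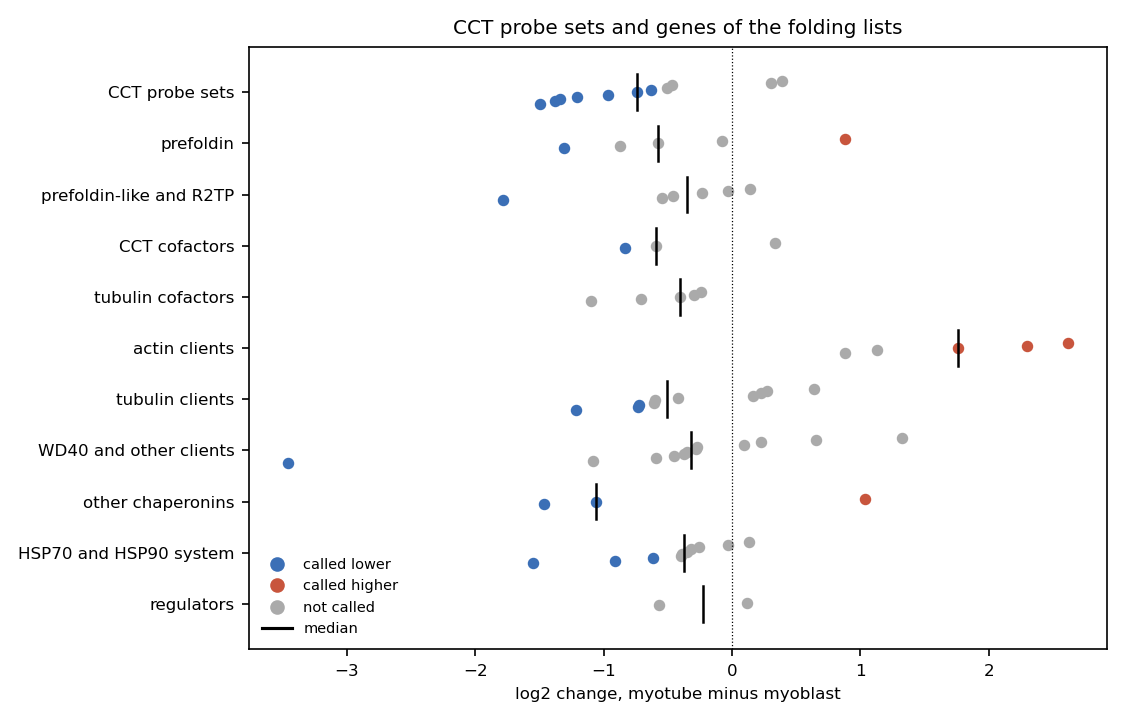
Log2 change, myotube minus myoblast, of the 11 CCT probe sets (top) and of the tested genes in each of the 10 folding lists, 1 point each, with a bar at the median. Blue points were called lower and red points higher, and grey points were not called. The CCT median is -0.74, the actin median 1.76, and 17 of the 61 list genes are coloured.

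The genes whose log2 signals over the 6 arrays followed the mean of the 8 measured subunits most closely were PSMA2, EXOSC8, TMA7, NASP and UBE3C, with Pearson's r from 0.9952 to 0.9997. The value rests on 6 arrays in 2 groups and was the highest among all tested genes by construction. PSMA2, a proteasome subunit, gave 9109, 8778 and 9071 in myoblasts and 4214, 4870 and 5457 in myotubes, a change of -0.87 ± 0.16. EXOSC8, an exosome subunit, changed by -1.28 ± 0.25, and TMA7 by -0.61 ± 0.17. The histone chaperone NASP went from 2700, 2628 and 2686 to 127, 181 and 499, all 3 myotube values below background, so it was at least 3.64-fold lower. The ubiquitin ligase UBE3C, at -0.51 ± 0.18, was not called, and EXOSC8 lay at or below background on 2 myotube arrays. EXOSC8 was lost without myoblast array 2 (-1.31) or 3 (-1.25), and TMA7 without those (-0.63 and -0.60) or myotube array 1 (-0.58) or 2 (-0.60). In the series block NASP alone of the 5 was called.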

How the data were processed

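Deposited values were a linear intensity per probe set, made by the authors with MAS5 per the submitters' processing notes, with version and scaling target not given in the sources used here. The members and lists were chosen with earlier results of these data known. The 68 control probe sets were left out, and symbols came from the platform annotation (19065 probe sets with 1 symbol, 1043 with several, 2107 with none). Values were taken as log2(signal + 196.9), the 25th percentile of the table, which understates the change of a weakly detected gene. A mean signal of at least 474.1 (40th percentile) was required for testing. Groups were compared with limma 3.58.1 (lmFit, eBayes with trend, two-sided) in R 4.3.3, with Benjamini-Hochberg adjustment over all probe sets or all genes and a threshold of 0.05. Every member probe set was described. Per list, up to 3 called genes a direction, by size of change, were named, or the 2 with the smallest p, plus the 5 genes most like the mean of the members. Among other lists of markers, 5 endothelial and 4 adipocyte genes had summed signals of 1011 to 2400 and 1098 to 1681 in myoblasts and 2258 to 3836 and 1206 to 1964 in myotubes. The background level is the highest of the array's control probe sets for Bacillus transcripts. That these were unspiked was assumed and not checked. No label says that the 3 arrays in a group are separate cultures, and the p-values reflect spread among arrays that may be technical. The number of arrays limits the precision. On simulated data with 13329 probe sets, 28 of 165 tested probe sets lowered by 1 on the log2 scale were recovered, and 123 of 138 lowered by 2, with 4 and 5 false calls. Only 200 probe sets were lowered each time, against 1510 called in the data, so these shares need not hold for the data. Alternatives covered the pseudocount, filter, scaling, eBayes options, blocks, averaged probe sets and leaving out arrays. The numbers in the run records of the myoblast arrays differ from their titles, and titles were used. Figures were drawn with matplotlib 3.10.9.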

Additional observations from a re-analysis of the deposited data

How the results depend on the processing

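No CCT probe set changed sign in the alternatives that tested it. These were 19 for each of the 9 bright probe sets, 18 for CCT6B and 16 for CCT8 210436_at, which fell under the filter in the rest. CCT8 200873_s_at stayed called in its 19. The 7 lower calls became 4 without eBayes trend, 2 with the laboratory series as a block and in the first series alone, and 3 with chip lot as a random block, an alternative chosen after seeing the data. Averaging myoblast arrays 2 and 3 gave 5, without CCT7 and CCT2 201947_s_at, where 2.36% of all tested probe sets were called lower. Leaving out single arrays gave 3 to 7. The median of -0.74 became -0.96 with the filter at the 60th percentile, which dropped the 2 dim probe sets. CCT7 was also lost after quantile normalization (-0.45). The 1510 calls over all probe sets became 917 without trend, 338 with the series block, 193 in the first series, 582 with myoblast arrays 2 and 3 averaged, 401 with the lot, and 487 to 3464 without single arrays. List genes called lower were then 7, 5, 3, 6, 5, and 5 to 16, against 12. Those called higher were 2 with the series block and in the first series, 3 with averaging and with the lot, and 3 to 9 without single arrays, against 5. HSF1 ran from -0.15 to 0.57 when single arrays were left out, with negative values when myotube array 1 (-0.15), myoblast array 1 (-0.13) or myotube array 3 (-0.06) was dropped. Deviations of same-numbered arrays from their group means correlated at 0.25, -0.18 and 0.38. Myoblast arrays 1 and 3 had their best match in the myotube array of the same number, and myoblast array 2 did not. With 3 arrays per group these values cannot settle whether the numbers pair the arrays. With the replicate block 7 CCT probe sets were called lower and 2314 probe sets in all. The causes were not tested. Signals near the background level limit CCT6B and CCT8 210436_at.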

Other observations

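HSP90AA1, HSP90AB1 and STIP1 were picked here after their values were seen. With all arrays as deposited, none was called by its brightest probe set, while other probe sets of the same gene were called lower. HSP90AA1 (cytosolic HSP90 alpha) went from 17840, 25303 and 25169 in myoblasts to 10154, 7360 and 12217 in myotubes by probe set 210211_s_at. By its brightest, 214328_s_at, it went from 57809, 33841 and 34662 to 33200, 29886 and 29927. STIP1, the adaptor between HSP70 and HSP90, went from 3149, 5106 and 5134 to 976, 2276 and 2136 by 213330_s_at, and from 3277, 5026 and 5099 to 3554, 3372 and 3251 by 212009_s_at. HSP90AB1 went from 16638, 16964 and 17988 to 6811, 9873 and 11963 by 214359_s_at. After quantile normalization the brightest probe sets of HSP90AA1 (-0.72) and HSP90AB1 (-0.62) were called lower too. That of STIP1 (-0.55) was called lower without myoblast array 1. The counts for the HSP70 and HSP90 list therefore depend on which probe set stands for a gene, on the scaling and on the arrays used. In the prefoldin list, PFDN4 went from 392, 495 and 243 to 1571, 2580 and 774 by 205360_at, which was called higher, and from 2475, 3473 and 3676 to 952, 1678 and 2669 by its brightest, 205361_s_at, which was not called.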
